A study of Mus musculus with 15 samples.

Results

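Chemokines are small secreted proteins that guide the movement of cells, and their receptors are G protein-coupled receptors on the cells that move. The chemokine and chemokine receptor genes examined here were those whose symbol began with Ccl, Cxcl, Ccr or Cxcr followed by a digit, or was Cx3cl1, Cx3cr1, Xcl1, Xcr1, Ackr3, Darc or Ccrl2, and 61 of the 23329 genes in the count tables met this rule. They were 19 signaling receptors, 3 atypical receptors and 39 ligands. The rule used symbols and no expression values, although the family was chosen with earlier results of these data known. Ackr3 is listed in the tables under its older symbol Cxcr7, and Darc is the older symbol of Ackr1.

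RNA from 15 frozen mouse tumors, each from a different mouse, was sequenced to ask how loss of Casp2, the gene of the protease caspase-2, alters tumors driven by Myc or by MYCN. The lymphomas were 4 EμMyc and 3 EμMyc/Casp2-/- tumors from cervical lymph nodes of mice on a C57BL/6 background, in which the immunoglobulin heavy chain enhancer drives Myc in B lineage cells. The neuroblastomas were 4 Th-MYCN and 4 Th-MYCN/Casp2-/- paraspinal thoracic tumors of mice on a Sv129/C57BL6 background, in which the tyrosine hydroxylase promoter drives MYCN in sympathoadrenal cells, and they had been picked for absent or reduced blood vascularization. Tumor onset fell between 13 and 19 weeks of age for EμMyc, 8 and 12 for EμMyc/Casp2-/-, 10 and 21 for Th-MYCN, and 15 and 24 for Th-MYCN/Casp2-/- mice. The transgene, the tissue and the strain all differ between the tumor types and cannot be told apart. Reads on genes numbered 9236641 to 13093667 in the EμMyc libraries, 4940464 to 11697757 in EμMyc/Casp2-/-, 13862487 to 17638029 in Th-MYCN and 10353787 to 15681695 in Th-MYCN/Casp2-/-. Levels are given as CPM, read counts scaled to library size after normalization by the trimmed mean of M-values (TMM), and 3 reads, the limit that a count of 0 allows, stood for 0.173 to 0.586 CPM depending on the library. Per-tumor values follow the order 614, 743b, 829 and 835 for EμMyc, 215, 239 and 245 for EμMyc/Casp2-/-, 175, 235, 332 and 391 for Th-MYCN, and 118, 144, 176 and 180 for Th-MYCN/Casp2-/-.

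A chemokine binds its receptor, the receptor activates Gi proteins, and the cell polarizes and moves up the gradient. Homeostatic chemokines such as Cxcl12, Cxcl13 and Ccl19 are made constantly by stromal cells of lymphoid tissue and bone marrow and place B cells and T cells there through Cxcr4, Cxcr5 and Ccr7. Inflammatory chemokines are induced by NF-kappaB or interferon signaling and draw in monocytes, neutrophils and effector T cells, while atypical receptors bind chemokines without activating G proteins and remove or present them.

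The promoters of 3 inducible ligand genes are shown because they carry the response elements of that induction and because these genes varied between tumors of the same genotype. Cxcl1 and Cxcl2 encode neighboring neutrophil attractants that signal through Cxcr2, and Cxcl10 encodes an attractant of Cxcr3-bearing T cells. The 250 bases before the annotated start (RefSeq, GRCm38.p6) are Cxcl1 at chr5:90890995-90891244 on the plus strand, Cxcl2 at chr5:90903649-90903898 on the plus strand and Cxcl10 at chr5:92348890-92349139 on the minus strand, each printed 5′ to 3′. Capitals mark matches to the NF-kappaB consensus and, in Cxcl10, also the interferon-stimulated response element, its first run of capitals.
Cxcl1: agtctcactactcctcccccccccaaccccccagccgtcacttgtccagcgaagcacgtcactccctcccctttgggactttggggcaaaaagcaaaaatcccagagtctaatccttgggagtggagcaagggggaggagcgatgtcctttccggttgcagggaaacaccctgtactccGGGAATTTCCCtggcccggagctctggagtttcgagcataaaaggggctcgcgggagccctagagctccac
Cxcl2: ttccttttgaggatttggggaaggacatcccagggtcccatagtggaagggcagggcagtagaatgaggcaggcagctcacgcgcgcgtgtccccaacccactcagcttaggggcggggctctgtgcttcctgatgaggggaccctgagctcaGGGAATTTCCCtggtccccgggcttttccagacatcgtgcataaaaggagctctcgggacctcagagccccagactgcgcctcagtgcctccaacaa
Cxcl10: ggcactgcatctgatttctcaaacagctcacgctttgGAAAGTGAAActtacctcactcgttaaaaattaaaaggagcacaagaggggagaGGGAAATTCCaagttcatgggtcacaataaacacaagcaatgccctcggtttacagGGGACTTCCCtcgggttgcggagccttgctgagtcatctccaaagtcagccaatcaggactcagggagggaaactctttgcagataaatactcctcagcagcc
In Cxcl1 and Cxcl2 the capitals are a pair of overlapping matches on opposite strands. RefSeq promoters were found for 45 of the 61 genes, 54 promoters in all. An NF-kappaB match on either strand lay in 9 of the 54 (16.7%) and in 3.9% of all 32851 promoters of this length, and an interferon-stimulated response element lay in 3 (5.56%) against 2.98% of all. The octamer ATGCAAAT, bound by B cell Oct factors, lay in the Ccr6 promoter only (1.85% of the 54, 1.6% of all), and the E-box CACGTG, bound by Myc and Max, in those of Xcr1 and Cxcl3 (3.7% of the 54, 6.02% of all). A match describes these letters and is not evidence of binding.

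Casp2 itself was measured first as a check of the genotypes. It stood at 167, 125, 203 and 139 CPM in the EμMyc tumors and at 58.0, 51.9 and 76.1 CPM in the EμMyc/Casp2-/- tumors, with no overlap. In the neuroblastomas it stood at 126, 93.3, 76.0 and 106 CPM in Th-MYCN and at 80.2, 57.7, 39.6 and 54.5 CPM in Th-MYCN/Casp2-/-, where the highest deleted tumor lay above the lowest intact tumor. The log2 fold changes were -1.35 (SE 0.25, FDR 0.0536) and -0.79 (SE 0.23, FDR 0.327) by the edgeR quasi-likelihood test, and by the more lenient likelihood ratio test the FDRs were 0.0004 and 0.102. Reads were counted over the whole gene, so transcript from outside the deleted stretch is included.

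The tumor labels fitted their markers. Summed B cell markers stood at 2112 to 4979 CPM in the lymphomas and 11.4 to 27.1 CPM in the neuroblastomas, and summed sympathetic neuroblast markers at 7.80 to 32.2 and 5116 to 8298 CPM. Lymphoma 215 (EμMyc/Casp2-/-) stood apart. It had the fewest reads, 11.2% unmapped reads against 3.15 to 3.89% in the other 6 lymphomas, the lowest Myc level (498 CPM against 1238 to 1914 CPM) and was the only female among the lymphomas. Its T cell markers (10 of 10 in the tables, Lck the most abundant) summed to 1625 CPM against 103 to 321 CPM, and 8 thymic epithelial markers, a list added after the data had been seen with Prss16 the most abundant, to 461 CPM against 2.36 to 7.17 CPM. A list of 7 thymocyte markers, added likewise, summed to 1166 CPM against 51.8 to 155 CPM, with Rag1 at 358 CPM, Dntt at 299 CPM and Ptcra, a chain of the immature T cell receptor, at 11.5 CPM in 215 and 0 in the other 6 lymphomas. Foxn1, the transcription factor that defines thymic epithelium, was at 2.54 CPM in lymphoma 215 and at 0 in the other 6 lymphomas, and Aire was at 0 in lymphoma 215. Lymphoma 743b (EμMyc) had the highest summed neutrophil markers, 541 CPM against 20.8 to 200 CPM in the other lymphomas (5 of 6 in the tables, S100a9 the most abundant). Neuroblastoma 391 (Th-MYCN) had the highest summed dendritic cell markers of its type, 50.0 against 18.4 to 23.9 CPM (6 of 6 in the tables). Itgax alone gave 40.2 CPM of that sum, against 4.34 to 8.06 CPM in the other neuroblastomas, while Zbtb46 (8.77 CPM) was the lowest of its type and Clec9a was at 0.0618 CPM in 391. In bulk tissue, fewer cells of a type and less RNA per cell cannot be told apart.

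At least 37 and at most 51 of the 61 genes had a read in a tumor. Summed over all 61, chemokine and receptor RNA made up 507 to 885 CPM in the lymphomas and 88.1 to 184 CPM in the neuroblastomas. Per kilobase of exon, the scale on which genes can be compared, Cxcr4 was the most abundant gene of the family in both tumor types, at 145 CPM per kb (SD 49.8, n = 7) in the lymphomas and 10.8 CPM per kb (SD 5.24, n = 8) in the neuroblastomas. It was followed in the lymphomas by Ccr7 at 29.4 (SD 8.77), Ccl8 at 17.0 (SD 6.73), Cxcl13 at 16.5 (SD 13.3) and Ccl6 at 14.0 CPM per kb (SD 8.90), of which Ccl8, Cxcl13 and Ccl6 lay within their spread of each other. In the neuroblastomas the next were Darc at 6.38 (SD 1.68), Ccl27a at 4.62 (SD 1.36), Cxcl16 at 4.59 (SD 1.49) and Ccl6 at 4.50 CPM per kb (SD 3.24). Of these, Ccl27a, Cxcl16 and Ccl6 lay within their spread of each other. Of the 61 genes, 39 exceeded 1 CPM in at least 3 tumors and were tested. The other 22 were not, and 5 of them (Ccl21a, Ccl21b, Ccl21c, Ccl27b and Cxcl15) had no read in any tumor. Ccl21a, Ccl21b, Ccl21c and Ccl27b belong to sets of near-identical copies, and reads that matched several places had not been counted, so a level of 0 is uncertain for them.

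Most of the tested chemokine and receptor genes were higher in lymphoma than in neuroblastoma. Comparing EμMyc with Th-MYCN tumors, 22 genes were higher and 4 lower (FDR under 0.05 and over 2-fold), where 18.3% and 27.8% of all 14880 tested genes were called in these directions. Comparing the Casp2-/- tumors of the same types, which are different mice, 26 were higher and 4 lower, against 19.7% and 26.6% of all genes. Without lymphoma 215 the second comparison had 23 higher and 3 lower. The genes higher in both comparisons numbered 20 (15.2% of all genes) and those lower in both were Ccl27a and Ccr10 (23.6% of all genes), while 12 were called in a single comparison and 5 in neither, among them Ccl3, Ccrl2, Cxcl1 and Cxcl14. The groups did not overlap for 17 genes higher and 5 lower in EμMyc (26.4% and 32.9% of all genes) and for 23 higher and 4 lower in EμMyc/Casp2-/- (23.6% and 31.2%). The median log2 fold change of the 39 genes was 2.05 in the first comparison, where that of all genes was -0.04.

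Part of this count follows from the filter on low counts. Of the 39 genes, 16 exceeded the minimum through lymphomas alone, and of all 803 genes that did so 71.5% were called higher in EμMyc than in Th-MYCN. Another 3, Ccr10, Ccl27a and Ccl28, passed through neuroblastomas alone, and of all 1953 genes that did so 86.0% were called lower in EμMyc and 80.8% in EμMyc/Casp2-/- tumors. Among the 20 that passed in both tumor types, 9 were higher and 2 lower in EμMyc, where all 12009 such genes had 17.9% and 20.3%, and 12 were higher and 1 lower in EμMyc/Casp2-/-, where all had 19.2% and 19.8%.

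**Figure D1:**
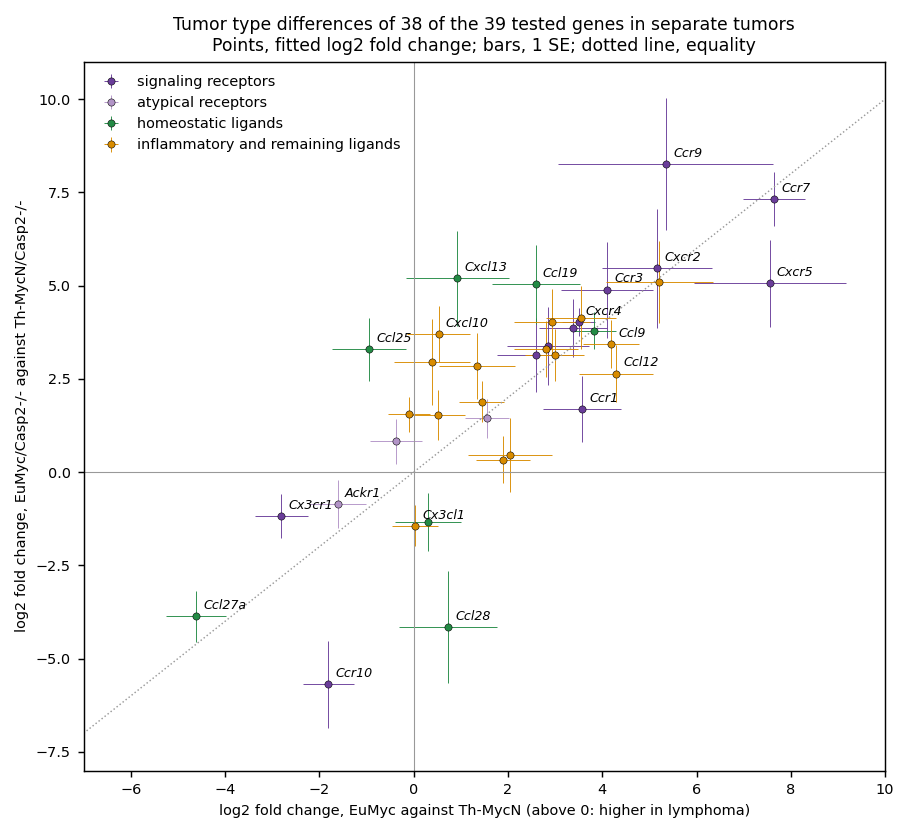
Log2 fold change of 38 of the 39 tested genes between tumor types, EμMyc against Th-MYCN on the horizontal axis and EμMyc/Casp2-/- against Th-MYCN/Casp2-/- on the vertical axis, which share no tumors; points are fitted values, bars 1 SE, and Ackr1 is Darc. The 20 genes called higher in both comparisons lie in the upper right quadrant, with Ccr7 at 7.64 and 7.32, and Ccl27a and Ccr10, called lower in both, lie farthest down on the left.

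Cxcr4, Ccr7 and Cxcr5, receptors known from B cells, were higher in lymphoma in both comparisons. Ccr7 and Cxcr5 passed the filter through lymphomas alone, a route on which 71.5% and 76.7% of all genes were called higher, and Cxcr4 passed in both tumor types. Cxcr4 (chr1:128588199-128592293), the receptor of Cxcl12 that holds B cell precursors in their niche, was at 262, 378, 307 and 189 CPM in EμMyc, 202, 139 and 358 CPM in EμMyc/Casp2-/-, 38.7, 17.7, 22.4 and 21.2 CPM in Th-MYCN and 9.29, 14.8, 9.26 and 23.5 CPM in Th-MYCN/Casp2-/-. Each lymphoma lay above each neuroblastoma, and the log2 fold changes were 3.50 (SE 0.35, FDR 1.54e-06) and 4.03 (SE 0.38, FDR 7.91e-07). Cxcr4 alone made up 50.9 to 82.4% of all receptor CPM in the lymphomas and 25.4 to 51.4% in the neuroblastomas.

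Ccr7 (chr11:99144196-99155077), which brings lymphocytes into the T zone of lymph nodes, was at 85.3, 36.5, 62.4 and 75.2 CPM in EμMyc, 52.2, 51.9 and 43.4 CPM in EμMyc/Casp2-/-, and at most 0.803 CPM in any neuroblastoma. It had the largest log2 fold change of the family that did not rest on a handful of reads, 7.64 (SE 0.66, FDR 2.24e-07) and 7.32 (SE 0.73, FDR 5.84e-07), and 8.68 in the first without neuroblastoma 391 and 7.93 in the second without neuroblastoma 144. Cxcr5 (chr9:44511787-44561877), the follicle homing receptor of mature B cells, varied far more between lymphomas. It was at 11.2, 0.856, 2.44 and 17.0 CPM in EμMyc and 1.95, 6.34 and 6.97 CPM in EμMyc/Casp2-/-, and at most 0.450 CPM in the neuroblastomas. The 329 reads in EμMyc stood against 2 in Th-MYCN, a ratio of 231 with a 95% counting interval of 63.6 to 1920 (FDR 0.000116), and the log2 fold change between the Casp2-/- tumors was 5.06 (SE 1.17, FDR 0.0013), where 7 of the 8 neuroblastoma reads were in tumor 144. Without that tumor the fitted value was 7.10 and rested on 1 neuroblastoma read.

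Several receptors of myeloid and effector cells were also higher in lymphoma, at lower levels, while Cx3cr1, described further below, was not. Of those named here and in the next paragraph, Ccr2 passed the filter in both tumor types. Cxcr2, Ccr3, Ccr1, Cxcr3 and Xcr1 passed through lymphomas alone, a route on which 71.5% and 76.7% of all genes were called higher. The filter thus favors this direction for them. Ccr2, the monocyte receptor of Ccl2, was at 4.29, 20.2, 4.41 and 9.45 CPM in EμMyc, 6.64, 28.7 and 5.96 CPM in EμMyc/Casp2-/- and 0.145 to 1.62 CPM in the neuroblastomas, with log2 fold changes of 3.38 (SE 0.73, FDR 0.00147), or 2.72 (FDR 0.00584) without 743b, and 3.86 (SE 0.78, FDR 0.00086), or 2.79 (FDR 0.00806) without 239. Cxcr2, the neutrophil receptor, was at 0.612, 9.41, 0.472 and 2.12 CPM in EμMyc and 1.37, 3.59 and 1.11 CPM in EμMyc/Casp2-/-, and at most 0.129 CPM in a neuroblastoma. Its log2 fold change in the first comparison was 5.16 (SE 1.17, FDR 0.000958) with all tumors and 3.6 (FDR 0.00447) without 743b, which held 110 of the EμMyc reads. In the second, 61 reads stood against 2, both in neuroblastoma 144, a ratio of 58.9 (95% counting interval 15.6 to 497, FDR 0.00174). Both Ccr2 and Cxcr2 were highest among EμMyc tumors in 743b, the tumor with the highest summed neutrophil markers. Of the EμMyc tumors, 743b also had the highest summed macrophage markers (1267 against 567 to 778 CPM). The same held for endothelial (352 against 161 to 252 CPM) and dendritic cell markers (25.0 against 8.66 to 15.6 CPM).

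Ccr3, best known from eosinophils, was at 1.84, 21.3, 1.02 and 0.212 CPM in EμMyc and 3.91, 2.34 and 3.43 CPM in EμMyc/Casp2-/-. The neuroblastomas had 0.0642 to 0.436 CPM. Its log2 fold change in the first comparison was 4.10 (SE 0.97, FDR 0.00305) with all tumors and 1.55 (FDR 0.0484) without 743b, and in the second 4.89 (SE 1.29, FDR 0.00273). Ccr1, a receptor of monocytes and neutrophils, was higher in EμMyc (log2 fold change 3.57, SE 0.83, FDR 0.00228, and 2.16, FDR 0.0162, without 743b) and missed the threshold between the Casp2-/- tumors (1.69, SE 0.89, FDR 0.107). The genes of Ccr1, Ccr3 and Ccr2 lie on chr9:123962124-124113557. Cxcr3 of effector T cells and Xcr1 of cross-presenting dendritic cells were higher in both comparisons at no more than 2.09 CPM, with log2 fold changes of 2.59 (SE 0.82) and 3.15 (SE 0.99) for Cxcr3 and 2.85 (SE 0.88) and 3.38 (SE 1.05) for Xcr1. The first value of Xcr1 was 3.68 without neuroblastoma 391, and the second of Cxcr3 was 3.81 without neuroblastoma 144.

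**Figure D2:**
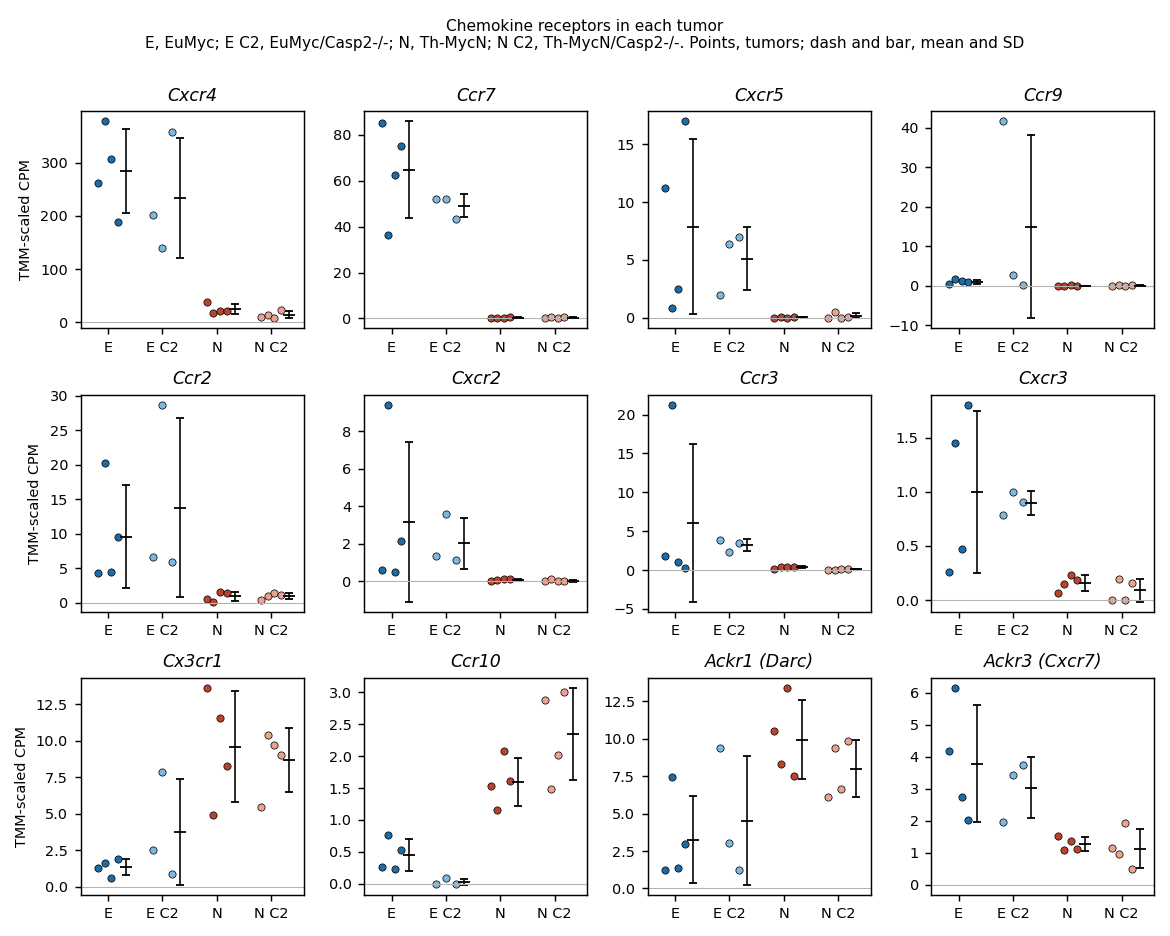
Level of 12 chemokine receptor genes in every tumor, as TMM-scaled CPM on linear axes that differ between panels; points are tumors, the dash and bar are the mean and SD of a group of 3 or 4 tumors. Cxcr4, Ccr7 and Ccr2 lay above all neuroblastomas in every lymphoma, Cx3cr1 and Ccr10 were higher in Th-MYCN than in EμMyc tumors, and Ccr9 reached 41.6 CPM in lymphoma 215 alone.

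Among the signaling receptors, 2 were higher in Th-MYCN than in EμMyc tumors. Cx3cr1 (chr9:119901616-120069879), the fractalkine receptor of monocytes and tissue macrophages, was at 1.31, 1.62, 0.63 and 1.91 CPM in EμMyc and 13.6, 4.94, 11.5 and 8.28 CPM in Th-MYCN, a log2 fold change of -2.81 (SE 0.56, FDR 0.000691). The Casp2-/- lymphomas and neuroblastomas were at 2.54, 7.85 and 0.909 CPM against 5.47, 10.4, 9.74 and 9.02 CPM, with a difference of -1.18 (SE 0.59, FDR 0.105) that became -2.31 (FDR 0.00663) without lymphoma 239. Summed macrophage markers (10 of 10, Lyz2 the most abundant) did not follow this order, at 350 to 1720 CPM in the lymphomas and 386 to 950 CPM in the neuroblastomas.

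Ccr10 (chr11:101172997-101175443), a receptor of Ccl27 and Ccl28 known from skin-homing T cells and plasma cells, was at 0.262, 0.77, 0.236 and 0.531 CPM in EμMyc and 1.53, 1.16, 2.08 and 1.61 CPM in Th-MYCN (log2 fold change -1.81, SE 0.54, FDR 0.00907). In the EμMyc/Casp2-/- tumors a single read was counted, in 239, against 121 reads in Th-MYCN/Casp2-/- tumors at 2.88, 1.48, 2.02 and 3.01 CPM, a level 62.7 times lower (95% counting interval 11 to 2500, FDR 4.2e-05). Both Ccr10 and its ligand gene Ccl27a passed the filter through neuroblastomas alone, which favors this direction. Ccl27a (chr4:41769467-41774247) was at 0.437, 0.428, 0.709 and 0.212 CPM in EμMyc, 2.15, 0.25 and 0.101 CPM in EμMyc/Casp2-/-, 7.76, 8.79, 10.97 and 17.8 CPM in Th-MYCN and 9.36, 10.7, 9.16 and 13.2 CPM in Th-MYCN/Casp2-/-. No lymphoma reached the lowest neuroblastoma, and the log2 fold changes were -4.61 (SE 0.64, FDR 3.14e-05) and -3.87 (SE 0.69, FDR 0.000468), the latter -5.74 (FDR 4.64e-06) without lymphoma 215. Of the Ccl27a exon bases, 0.337% overlap Il11ra1.

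The atypical receptors split. Ackr3 (Cxcr7), the scavenging receptor of Cxcl12, was at 4.20, 6.16, 2.76 and 2.02 CPM in EμMyc and 1.53, 1.09, 1.39 and 1.11 CPM in Th-MYCN (log2 fold change 1.56, SE 0.47, FDR 0.011), and differed by 1.44 between the Casp2-/- tumors (SE 0.52, FDR 0.0262), where leaving out any of 5 of the 7 tumors raised the FDR to between 0.0523 and 0.0838. Darc (Ackr1, chr1:173331886-173333750), which carries chemokines on venular endothelium and erythroid cells, was at 1.23, 7.44, 1.34 and 2.97 CPM in EμMyc and 10.5, 8.28, 13.4 and 7.54 CPM in Th-MYCN. The difference of -1.61 (SE 0.60, FDR 0.033) lost its call without any of 5 of the 8 tumors (FDR up to 0.0949) and was -2.43 without lymphoma 743b. Between the Casp2-/- tumors it was -0.85 (SE 0.65, FDR 0.289), and -1.84 (FDR 0.033) without lymphoma 215. Of the Darc exon bases, 25.7% lie within Cadm3 on the same strand, and Cadm3 itself was at 25.3 to 59.0 CPM in the neuroblastomas and 0.101 to 3.32 CPM in the lymphomas. Its part in the Darc count was not tested. Ccrl2, which presents chemerin, differed by -0.37 (SE 0.55, FDR 0.575) and 0.83 (SE 0.60, FDR 0.239).

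Among the homeostatic ligands, Cxcl12 (chr6:117168535-117181367), the ligand of Cxcr4, was higher in lymphoma in both comparisons. It was at 27.8, 138, 66.5 and 44.2 CPM in EμMyc, 72.5, 108 and 56.8 CPM in EμMyc/Casp2-/-, 6.17, 2.54, 3.29 and 7.29 CPM in Th-MYCN and 4.11, 5.08, 9.35 and 4.47 CPM in Th-MYCN/Casp2-/-. The types did not overlap, and the log2 fold changes were 3.83 (SE 0.46, FDR 1.04e-05) and 3.79 (SE 0.50, FDR 1.82e-05). The sum of the endothelial markers (8 of 8, Pecam1 the most abundant) was 161 to 352 CPM in the lymphomas and 34.7 to 110 CPM in the neuroblastomas. Of these 8 genes, 4 were called higher in the first comparison and 6 in the second (18.3% and 19.7% of all genes). Every EμMyc tumor exceeded every Th-MYCN tumor for 2 of them (26.4% of all genes). Between the Casp2-/- tumors this was so for 6 (23.6% of all genes). Pecam1 alone was at 74.6 to 147 CPM against 8.29 to 27.0 CPM, and Plvap at 31.1 to 91.0 against 4.56 to 22.8 CPM. Cdh5 overlapped, at 18.5 to 62.9 CPM in the lymphomas and 3.98 to 27.6 CPM in the neuroblastomas. The separation of the sums thus did not hold for every gene of the list. Fibroblast and pericyte markers (8 of 8, Col3a1 the most abundant) summed to 382 to 1423 CPM in the lymphomas and 214 to 596 CPM in the neuroblastomas, which overlap, and 2 and 1 of these 8 genes were called higher. The part of either list in the Cxcl12 difference was not tested.

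Cxcl13 (chr5:95956951-95961068), the follicular ligand of Cxcr5, depended on a single neuroblastoma. It was at 5.42, 12.8, 7.01 and 22.6 CPM in EμMyc and at 0.122, 1.24, 0.462 and 23.3 CPM in Th-MYCN, the last being tumor 391. The log2 fold change was 0.93 (SE 1.10, FDR 0.488) with all tumors and 4.30 (FDR 0.00149) without 391. After Casp2 loss Cxcl13 was at 47.9, 28.7 and 8.68 CPM against 0.144 to 1.41 CPM (log2 fold change 5.20, SE 1.27, FDR 0.0043).

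Ccl19 (chr4:42754525-42756577), the T zone ligand of Ccr7, was at 1.49, 2.65, 1.34 and 12.8 CPM in EμMyc, 15.2, 11.6 and 5.15 CPM in EμMyc/Casp2-/-, 0.489, 0.145, 0.0577 and 2.29 CPM in Th-MYCN and 0.072 to 0.569 CPM in Th-MYCN/Casp2-/-. Between the Casp2-/- tumors it was higher in each lymphoma (log2 fold change 5.03, SE 1.07, FDR 0.00127). Ccl19 passed the filter through lymphomas alone, which favors this direction. The first comparison gave 2.59 (SE 0.93, FDR 0.0294), which became 1.28 (FDR 0.224) without lymphoma 835 and 4.24 (FDR 0.00264) without neuroblastoma 391, and the FDR passed 0.05 without any of the other 3 Th-MYCN tumors. Cxcl14 was not called in either comparison, at 1.18 to 14.6 CPM in EμMyc and 1.82 to 10.6 CPM in Th-MYCN.

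Ccl28, a mucosal ligand of Ccr10, had 4 reads in all EμMyc/Casp2-/- tumors and was at 7.85, 1.67, 0.289 and 0.487 CPM in Th-MYCN/Casp2-/-. Its log2 fold change of -4.16 (SE 1.5, FDR 0.0199) was -2.54 (FDR 0.101) without neuroblastoma 118 and lost its call also without lymphoma 215 (-3.76, FDR 0.0581) or 245 (-3.59, FDR 0.0703), and in EμMyc against Th-MYCN it was 0.73 (SE 1.03, FDR 0.561), and -0.44 without lymphoma 835. The 4 lymphoma reads were all in 239. Ccl28 passed the filter through neuroblastomas alone, which favors a lower value in lymphoma.

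**Figure D3:**
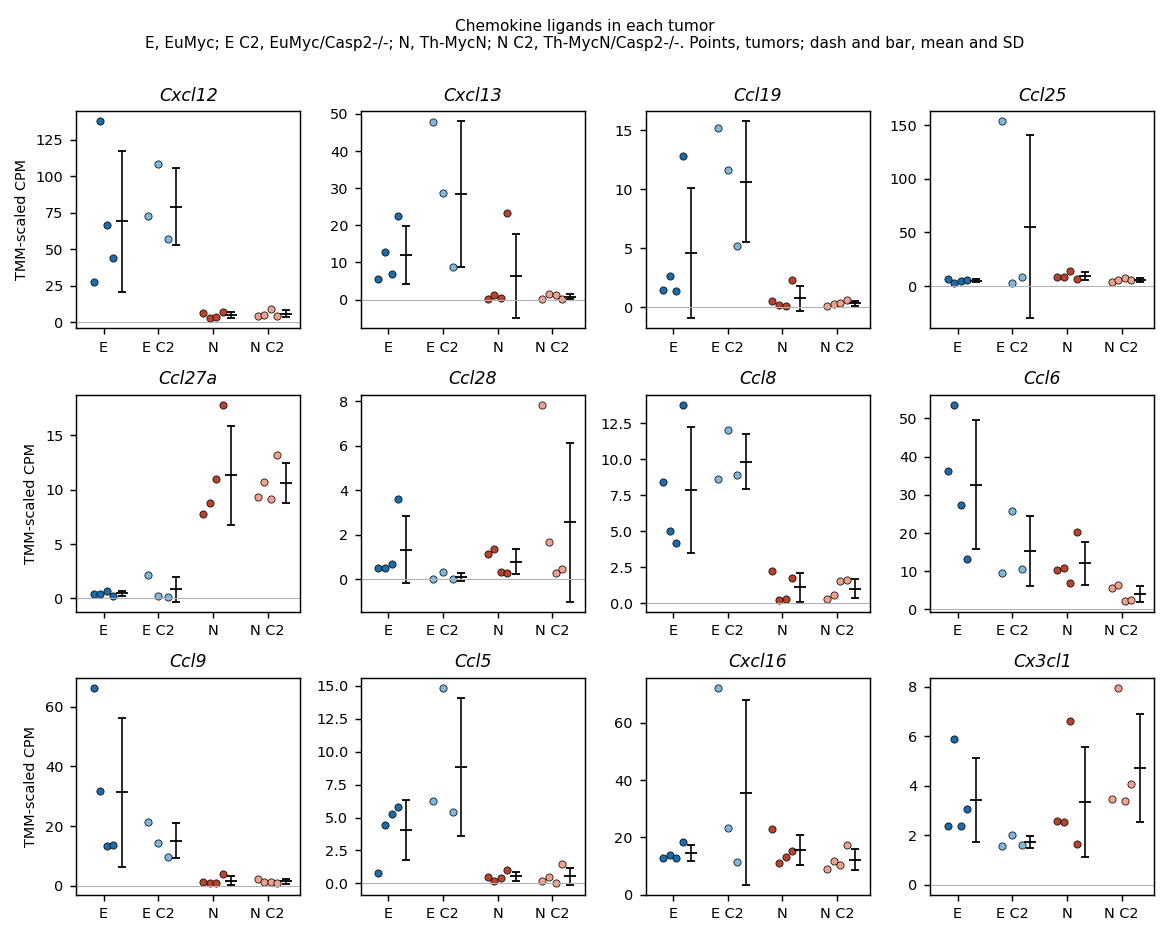
Level of 12 chemokine ligand genes in every tumor, as TMM-scaled CPM on linear axes that differ between panels; points are tumors, the dash and bar are the mean and SD of a group of 3 or 4 tumors. Cxcl12 lay at 27.8 to 138 CPM in the lymphomas and 2.54 to 9.35 CPM in the neuroblastomas, Ccl27a showed the opposite order, Ccl25 reached 154 CPM in lymphoma 215, and Cxcl13 reached 23.3 CPM in neuroblastoma 391.

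Of the 11 tested inflammatory CC ligands, 9 were higher in lymphoma and none lower in each comparison, against 18.3% and 19.7% of all genes called higher. Of these 11, 6 (Ccl7, Ccl12, Ccl5, Ccl3, Ccl4 and Ccl22) passed the filter through lymphomas alone, a route on which 71.5% and 76.7% of all genes were called higher. The monocyte attractants Ccl2, Ccl7, Ccl12 and Ccl8, whose genes lie within chr11:82035571-82116799, were higher in both. Ccl2 was at 4.46, 25.8, 5.20 and 8.92 CPM in EμMyc, 13.9, 18.7 and 3.13 CPM in EμMyc/Casp2-/- and 0.576 to 2.51 CPM in the neuroblastomas, with log2 fold changes of 2.99 (SE 0.63, FDR 0.00126), or 2.15 (FDR 0.00583) without 743b, and 3.14 (SE 0.69, FDR 0.00135). The values of Ccl7 were 3.55 (SE 0.74; 2.83 without 743b) and 4.14 (SE 0.85), those of Ccl12 4.29 (SE 0.79) and 2.64 (SE 0.76; 3.30 without neuroblastoma 176), and those of Ccl8 2.81 (SE 0.68) and 3.29 (SE 0.75). Ccl11, the eosinophil attractant of the same cluster, was higher in EμMyc although the groups overlapped (1.90, SE 0.57, FDR 0.0109), lost its call without 743b (1.29, FDR 0.0606), was 2.70 without neuroblastoma 391, and differed by 0.33 (SE 0.63, FDR 0.67) between the Casp2-/- tumors.

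Ccl9, a ligand of Ccr1, was at 66.4, 31.7, 13.4 and 13.8 CPM in EμMyc, 21.3, 14.4 and 9.69 CPM in EμMyc/Casp2-/- and 0.731 to 3.89 CPM in the neuroblastomas, with log2 fold changes of 4.19 (SE 0.59, FDR 5.79e-05) and 3.43 (SE 0.65, FDR 0.000458). The first was 3.55 without lymphoma 614 and 4.98 without neuroblastoma 391. Its neighbor Ccl6 differed less and overlapped in the first comparison (1.44, SE 0.48, FDR 0.02), where it lost its call without lymphoma 743b (1.09, FDR 0.0788) or neuroblastoma 332 (1.24, FDR 0.0618). In the second comparison Ccl6 differed by 1.89 (SE 0.54, FDR 0.00671), and by 1.35 (FDR 0.0528) without lymphoma 239. Ccl5, a T cell and natural killer cell product, was at 0.787, 4.45, 5.28 and 5.84 CPM in EμMyc and 0.489, 0.218, 0.404 and 0.988 CPM in Th-MYCN (2.93, SE 0.81, FDR 0.00728) and differed by 4.03 (SE 0.88, FDR 0.0014) between the Casp2-/- tumors, or by 5.24 without neuroblastoma 180.

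Ccl22, a ligand of Ccr4 made by dendritic cells and B cells, was at 0.7, 3.94, 1.81 and 2.02 CPM in EμMyc and had 3 reads in all Th-MYCN tumors against 96, a ratio of 45 (95% counting interval 15.0 to 222, FDR 0.000293). In the Casp2-/- tumors it was at 1.17, 4.26 and 2.83 CPM against 0.257 CPM in neuroblastoma 144 and 0 in the other 3 (log2 fold change 5.09, SE 1.10, FDR 0.000426), so that the value rests on the reads of 144. Ccl3 and Ccl4, products of activated macrophages and lymphocytes, did not differ beyond the threshold in the first comparison (0.51, SE 0.58, and 0.39, SE 0.81). There the Ccl4 value depended on neuroblastoma 391, at 3.09 CPM (50 reads) against 0.122 to 0.799 CPM in the other Th-MYCN tumors. The EμMyc tumors had 1.05, 2.65, 1.73 and 0.319 CPM of Ccl4. In the second, Ccl4 was higher in lymphoma (2.96, SE 1.15, FDR 0.025), a call lost without lymphoma 239 (2.92, FDR 0.052), lymphoma 245 (2.54, FDR 0.0874) or neuroblastoma 118 (2.85, FDR 0.0577). Ccl3 missed the threshold (1.53, SE 0.67, FDR 0.0578) and passed it without lymphoma 245 (1.84, FDR 0.0401) or neuroblastoma 176 (1.77, FDR 0.0491) or 180 (1.91, FDR 0.0377).

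The Cxcr3 ligands Cxcl10 and Cxcl9 passed the threshold between the Casp2-/- tumors and missed it between the Casp2 intact tumors. Cxcl10 was at 10.4, 8.76 and 1.31 CPM in EμMyc/Casp2-/- and 0.288, 0.45, 0.675 and 0.65 CPM in Th-MYCN/Casp2-/- (3.70, SE 0.76, FDR 0.000809), and at 0.525, 2.31, 5.59 and 2.34 CPM in EμMyc against 0.855, 2.03, 2.54 and 2.04 CPM in Th-MYCN (0.53, SE 0.67, FDR 0.513). Of the Cxcl10 exon bases, 5.91% are shared with the antisense gene Art3, whose part in its count was not tested. Cxcl9 differed by 2.85 (SE 0.89, FDR 0.0131), 4.32 (FDR 0.00125) without neuroblastoma 180, and by 1.35 (SE 0.81, FDR 0.167) between the Casp2 intact tumors. It passed the filter through lymphomas alone, which favors a higher value in lymphoma. Tested as an interaction, the difference between these 2 contrasts was 3.17 for Cxcl10 (SE 1.01, FDR 0.429) and 1.51 for Cxcl9 (SE 1.21, FDR 0.844), and neither passed.

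Cxcl1, the only Cxcr2 ligand tested, was at 1.40, 12.7, 0.315 and 2.55 CPM in EμMyc and 1.47, 0.654, 1.44 and 0.494 CPM in Th-MYCN (2.05, SE 0.89, FDR 0.0638). The difference was 0.47 (FDR 0.633) without 743b, and it passed the threshold without 614 (2.38, FDR 0.0427) or 829 (2.44, FDR 0.0202). Its neighbor Cxcl2, whose promoter carries the same overlapping NF-kappaB matches, was not tested and was highest in the same tumor, 743b, at 3.76 CPM against 1.31 CPM or less elsewhere. Cxcl5 reached 4.62 CPM in 743b and at most 0.964 CPM elsewhere.

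Of the membrane-tethered ligands, Cxcl16 (chr11:70453983-70459984), made by macrophages and dendritic cells, was at 12.9, 13.9, 12.9 and 18.5 CPM in EμMyc and 22.8, 11.1, 13.2 and 15.4 CPM in Th-MYCN (-0.10, SE 0.44, FDR 0.856). Between the Casp2-/- tumors it was at 72.3, 23.4 and 11.3 CPM against 8.93 to 17.3 CPM (1.55, SE 0.47, FDR 0.0106), and the difference was 0.59 (FDR 0.189) without lymphoma 215. Of its exon bases, 18.3% lie in the antisense gene Zmynd15, which was at 14.3 CPM in lymphoma 215 and 3.31 to 9.60 CPM in the other lymphomas. The libraries kept no strand, so reads of the overlap cannot be told apart. Cx3cl1 (fractalkine), the ligand of Cx3cr1 best known from neurons and endothelium, differed by 0.03 (SE 0.49, FDR 0.963) in the first comparison and by -1.44 (SE 0.55, FDR 0.0382) between the Casp2-/- tumors, where leaving out any of 5 of the 7 tumors raised the FDR to between 0.0529 and 0.125.

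Of the cell types that carry these receptors, T cell markers were called higher in lymphoma for 10 of 10 genes in both comparisons, and neutrophil markers for 4 of 5 and 5 of 5, where 18.3% and 19.7% of all genes were called higher. All T cell markers but Cd4 and Lck and all neutrophil markers but Csf3r exceeded the minimum through lymphomas alone, and of all genes that did so 71.5% and 76.7% were called higher, so the filter fixes much of these counts. Summed T cell markers were 103 to 1625 CPM in the lymphomas and 10.5 to 25.0 CPM in the neuroblastomas, and summed neutrophil markers 20.8 to 541 and 1.94 to 7.23 CPM. Outside lymphoma 215, most of the T cell sums in the lymphomas came from Cd2, Cd4, Lck and Zap70. There Cd2 was at 4.11 to 122 CPM and Cd3e at 0 to 4.42 CPM. In lymphoma 614, Cd2 was at 73.6 CPM, Cd3d and Cd3g at 0.0875 CPM and Cd3e at 0. For the macrophage list 2 of 10 genes were called higher in each comparison, a share near that of all genes. Of 6 dendritic cell markers, 3 were called higher and 2 lower in the first comparison and 4 higher and 1 lower in the second. The part of these cells in the differences of the chemokine genes was not tested.

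Genes that carry the signal inside the cell were called in both directions. Of 31 genes downstream of chemokine receptors, 30 were tested, and 15 were higher and 5 lower in EμMyc than in Th-MYCN, and 16 higher and 5 lower between the Casp2-/- tumors. Of all genes 18.3% and 27.8% were called higher and lower in the first comparison, and 19.7% and 26.6% in the second. The genes named here from this list were chosen after their values were seen. Those higher had log2 fold changes of 5.32 and 6.21 for Rac2, a GTPase of leukocyte migration, 4.95 and 5.36 for Dock2, its exchange factor, and 4.05 and 5 for Pik3cg, the lipid kinase driven by Gi-coupled receptors. Gnai1, a Gi subunit, was lower by -4.87 and -4.45. The ubiquitous GTPase gene Rac1 differed by 0.05 and 0.14.

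Casp2 loss in lymphoma was compared next. The quasi-likelihood test called none of the 39 genes between EμMyc/Casp2-/- and EμMyc tumors, and called 0.141% of all genes. An unadjusted p under 0.05 was reached by 6 of the 39, against 8.53% of all genes, and the likelihood ratio test and DESeq2 each called 1 gene, Ccl25 (1.44% of all genes for the likelihood ratio test). The median log2 fold change of the 39 genes was -0.13. The EμMyc/Casp2-/- tumors lay wholly below the EμMyc tumors for Ccr10, Ccl28 and Cx3cl1 (1.96% of all genes), and wholly above for no gene (1.75% of all). For Ccr10 and Ccl28 this rests on counts of 0 in 215 and 245, and since a 0 allows up to 0.586 CPM in 215, above some EμMyc values of both genes, their order was not detectable at this depth.

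The largest fitted differences sat in lymphoma 215. Ccl25 (chr8:4325210-4360020), a chemokine that thymic epithelium and small intestine make to attract developing T cells, was at 154 CPM in 215, 3.17 CPM in 239 and 8.68 CPM in 245, against 6.30, 3.08, 4.88 and 5.31 CPM in EμMyc. Its receptor gene Ccr9 (chr9:123678439-123784330) was at 41.6, 2.75 and 0.303 CPM against 0.437, 1.62, 1.10 and 0.956 CPM. Of the Ccr9 exon bases, 21.5% are shared with Slc6a20a, Gm17200 and AC165425.1, whose part in its count was not tested. Of the Ccl25 exon bases, 2.74% are shared with the antisense gene Elavl1, whose part was not tested either. The log2 fold changes of 3.49 for Ccl25 (SE 0.84, FDR 0.168) and 3.82 for Ccr9 (SE 1.03, FDR 0.231) became 0.29 and 0.60 without lymphoma 215. With 215 kept, Ccl25 passed the threshold without lymphoma 239 (4.06, FDR 0.0386) or 245 (3.99, FDR 0.0348), and Ccr9 without 245 (4.39, FDR 0.0275). Cxcl16 showed the same dependence, with 1.28 (SE 0.47, FDR 0.407) and 0.27. Thymic epithelial, thymocyte and T cell markers were highest in the same tumor, as given above. Summed macrophage markers were highest there too, at 1720 CPM against 350 to 1267 CPM in the other lymphomas. Summed natural killer cell markers were at 28.3 CPM against 0.525 to 6.43 CPM. The part of all these markers in these levels was not tested. The comparison of Casp2-/- tumor types rests on lymphoma 215 too: Ccl25 was called higher in lymphoma there (3.29, SE 0.84, FDR 0.00446), and differed by 0.14 (FDR 0.817) without 215. Ccr9 remained called in that comparison without 215 (log2 fold change 5.09, FDR 0.000829), against 249 reads to 2 with it, a ratio of 240 (95% counting interval 65.8 to 2000), and in EμMyc against Th-MYCN 47 reads stood against 1, a ratio of 66.1 (11.3 to 2670, FDR 0.0047). Ccr9 passed the filter through lymphomas alone, which favors this direction. Between Casp2 intact types Ccl25 differed by -0.95 (SE 0.79, FDR 0.312).

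**Figure D4:**
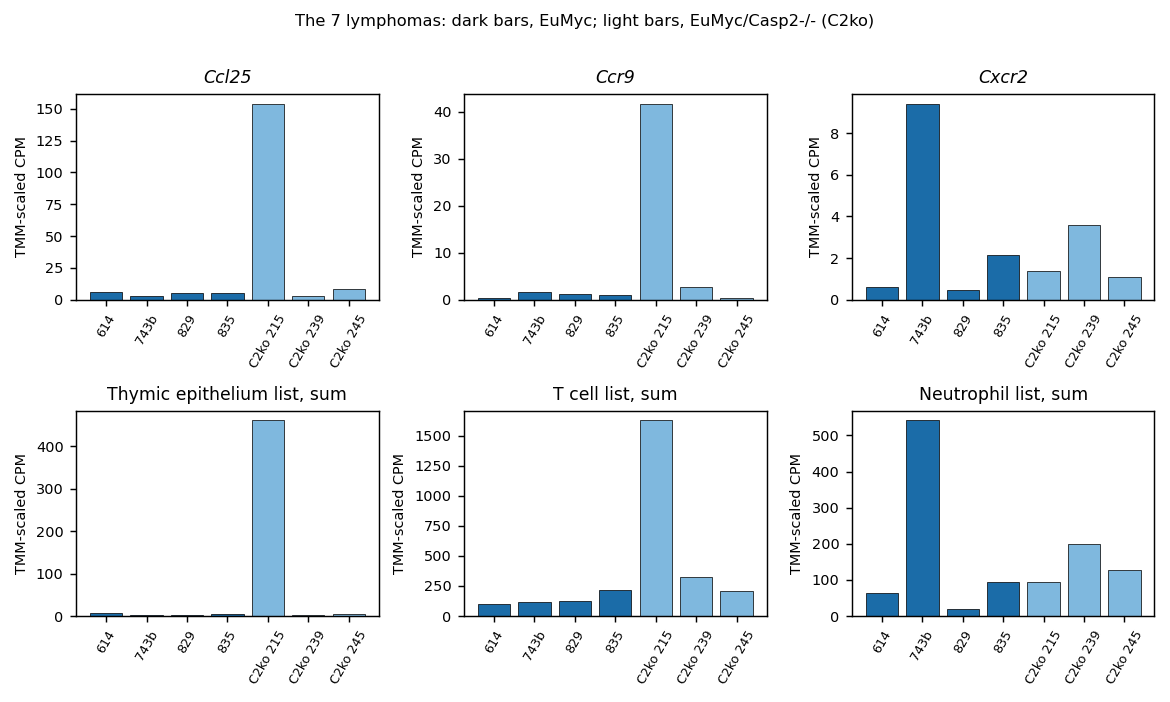
Levels in the 7 lymphomas as TMM-scaled CPM (bars from 0, linear axes that differ between panels) of Ccl25, Ccr9 and Cxcr2 above and of the summed marker lists of thymic epithelium, T cells and neutrophils below; dark bars are EμMyc, light bars EμMyc/Casp2-/- tumors. Ccl25 and Ccr9 were highest in 215, the tumor with 461 CPM of thymic epithelial and 1625 CPM of T cell markers, and Cxcr2 was highest in 743b, with 541 CPM of neutrophil markers.

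Other differences did not depend on 215 in this way and did not pass the test either. Ccr10 had 1 read in the 3 EμMyc/Casp2-/- tumors and 20 in the 4 EμMyc tumors, a level 11.9 times lower (95% counting interval 1.91 to 495, FDR 0.213). Cx3cr1 differed by 1.48 (SE 0.61, FDR 0.487), and by 0.30 without lymphoma 239. Ccl28 differed by -3.19 (SE 1.51, FDR 0.548), and by -2.02 without lymphoma 835, with its 4 EμMyc/Casp2-/- reads all in 239. Ccl6 differed by -1.08 (SE 0.53, FDR 0.613), and by -1.68 without lymphoma 239, and Ccl11 by -1.27 (SE 0.63, FDR 0.617), and by -0.66 without lymphoma 743b. For the B cell receptors the differences were -0.28 for Cxcr4 (SE 0.38, FDR 0.862), -0.40 for Ccr7 (SE 0.54, FDR 0.864) and -0.61 for Cxcr5 (SE 0.93, FDR 0.887), and Cxcl12 differed by 0.20 (SE 0.48, FDR 0.937).

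In the neuroblastomas, too, loss of Casp2 left no gene of the family called by the quasi-likelihood test (0.0336% of all genes), the likelihood ratio test (0.813% of all genes) or DESeq2. An unadjusted p under 0.05 was reached by 6 of the 39 against 6.77% of all genes, each with a negative log2 fold change: Ccl4, Ccl6, Cxcl10, Cxcl13, Ccl3 and Cxcr4. Ccl6, a macrophage product, was at 5.47, 6.36, 2.22 and 2.44 CPM against 10.4, 10.8, 6.81 and 20.2 CPM (-1.54, SE 0.49, FDR 0.436). Cxcl10 was at 0.288, 0.45, 0.675 and 0.65 CPM against 0.855, 2.03, 2.54 and 2.04 CPM (-1.85, SE 0.71, FDR 0.581). For Ccl6 and Cxcl10 each Casp2-/- tumor lay below each intact tumor, which held for 3.68% of all genes.

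Ccl4 was at 0.072, 0.129, 0.0964 and 0.0812 CPM against 0.122, 0.799, 0.404 and 3.09 CPM (-3.40, SE 1.07, FDR 0.327, and -2.08 without neuroblastoma 391, which held 50 of the Th-MYCN reads), values that lie near or under 3 reads in most of these libraries. Cxcl13 (-3.03, SE 1.20, FDR 0.639) turned to 0.35 without neuroblastoma 391. Cxcr4 differed by -0.81 (SE 0.36, FDR 0.69) and Ccl3 by -1.38 (SE 0.61, FDR 0.686). The value of Ccl12 was positive, 1.57 (SE 0.84, FDR 0.804), at no more than 0.964 CPM, and 0.90 without neuroblastoma 176. Of the cell type markers, summed endothelial markers were at 34.7 to 57.7 CPM in Th-MYCN/Casp2-/- and 69.4 to 110 CPM in Th-MYCN tumors, without overlap, and summed macrophage markers at 386 to 908 and 655 to 950 CPM. Their part in these values was not tested.

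**Figure D5:**
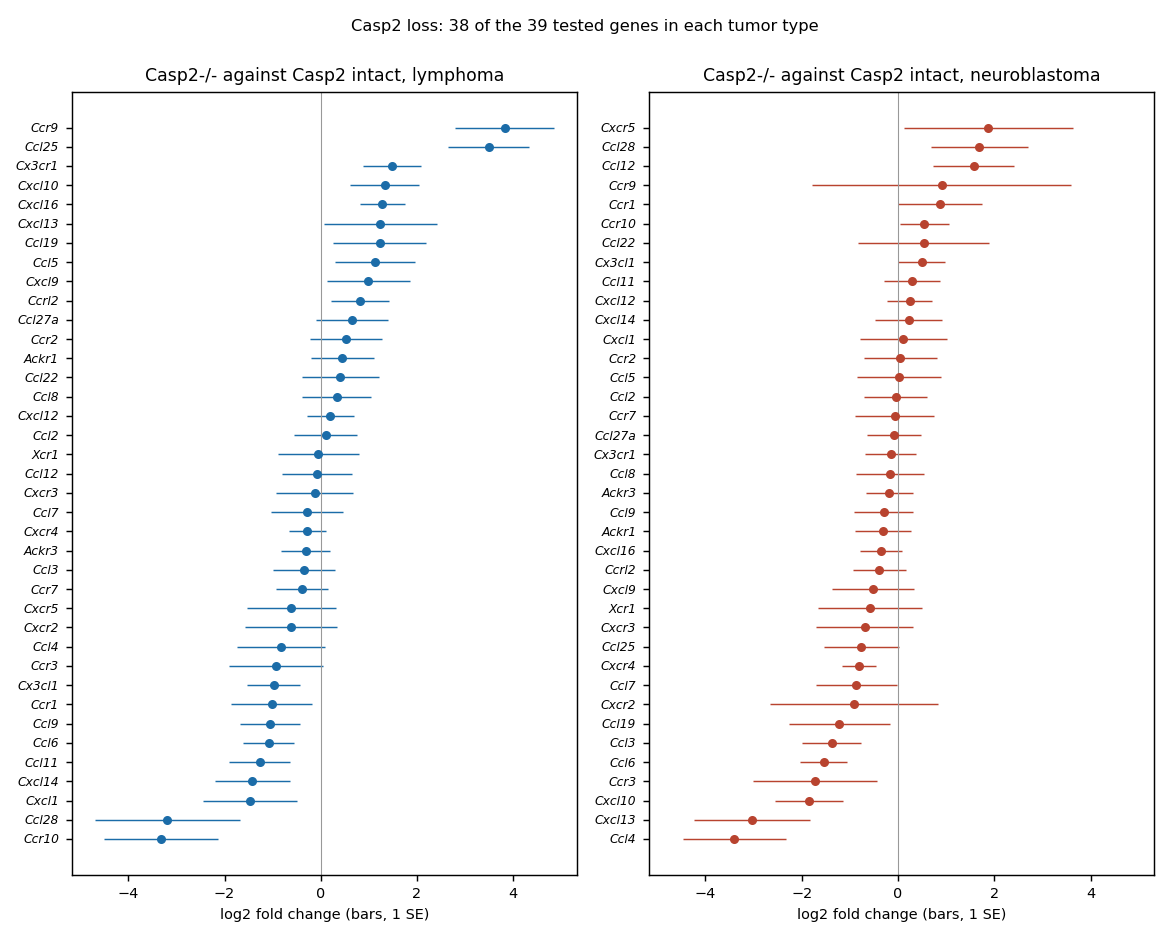
Log2 fold change of 38 of the 39 tested genes after Casp2 loss in the lymphomas (left) and in the neuroblastomas (right), each ordered by value; points are fitted values and bars 1 SE. No gene passed the quasi-likelihood test in either tumor type. Ccr9 and Ccl25 stand at the top on the left through lymphoma 215, and Ccl4 at the bottom on the right.

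The difference between the Casp2 effects in the 2 tumor types was tested as an interaction. The quasi-likelihood test called none of the 39 genes (0.0538% of all genes), 6 reached an unadjusted p under 0.05 (7.57% of all genes), and the likelihood ratio test and DESeq2 each called Ccl25 alone (0.914% of all genes for the likelihood ratio test). Ccl25 had an interaction of 4.25 (SE 1.15, FDR 0.329), which was 1.03 without lymphoma 215. For Cxcl10 it was 3.17 (SE 1.01, FDR 0.429), with 1.33 in the lymphomas and -1.85 in the neuroblastomas, and for Ccr10 it was -3.88 (SE 1.29, FDR 0.318), which rests on the single read of the EμMyc/Casp2-/- tumors. The remaining values with an unadjusted p under 0.05 were -4.88 for Ccl28 (SE 1.82, FDR 0.499), 1.65 for Cxcl16 (SE 0.64, FDR 0.581) and 4.27 for Cxcl13 (SE 1.68, FDR 0.587). Without lymphoma 215 that of Cxcl16 was 0.64, without neuroblastoma 391 that of Cxcl13 was 0.89, and without neuroblastoma 118 that of Ccl28 was -3.28. Cx3cr1 (1.63, SE 0.81, FDR 0.678) and Cx3cl1 (-1.47, SE 0.73, FDR 0.685) came next, and that of Cx3cr1 was 0.45 without lymphoma 239.

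The 22 genes that were not tested had few reads. Xcl1, the ligand of Xcr1, reached at most 0.417 CPM, in lymphoma 239. Ccr6, a receptor of mature B cells, reached 6.76 CPM in lymphoma 239 and at most 0.85 CPM elsewhere, Ccr4 reached 2.34 CPM in lymphoma 215 and Cxcr6 1.92 CPM in lymphoma 239. Besides these and Cxcl2 and Cxcl5, the untested genes above 1 CPM in any tumor were Cxcl17 at 1.27 CPM in lymphoma 835, Cxcl11 at 1.56 CPM in lymphoma 215 and Ccl24 at 1.01 CPM in lymphoma 245.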

How the data were processed

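The authors enriched poly(A) RNA from frozen tumors, made single-end reads, ran FastQC and STAR (mm10/GRCm38) on them and deposited raw counts of reads per gene, without normalization. The annotation release and tool versions are not given in the sources used here. Each table holds counts for either strand and for each strand, and the second strand column was used, as the study did. That column held 48.8 to 49.3% of the reads of both strands, so no strand was kept. A further EμMyc/Casp2-/- tumor is not analysed here.

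The tools were edgeR 4.0.16, DESeq2 1.42.0 and limma 3.58.1, run in R 4.3.3. Genes over 1 CPM in at least 3 of the 15 tumors (14880 of 23329) were scaled by TMM and fitted with 4 group means. Contrasts were tested with the edgeR quasi-likelihood F test, and a gene was called where its log2 fold change exceeded 1 in size at a Benjamini-Hochberg FDR below 0.05. The likelihood ratio test, DESeq2, RLE size factors, other filters, both strands, only the groups compared, sex as a covariate (from the study's sample sheet) and leaving out each tumor were alternatives. On simulated counts with 200 of 14880 genes changed 4-fold in the lymphoma comparison, the quasi-likelihood test recovered 148 with 3.90% of its calls false and the likelihood ratio test 169 with 12.0%. In the neuroblastoma comparison (14879 genes) they recovered 153 with 3.77% and 169 with 17.6%. Ratios of genes with 1 to 3 reads in a group have exact 95% intervals, which cover counting error only. Tumors of the same group differed beyond sampling noise (21 pairs, chi-square per degree of freedom 16.2 to 76).

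The family and all gene lists were chosen with earlier results of these data known. Genes named were the 8 called genes with the largest and the 8 with the most negative change between tumor types, the 8 most abundant per type by mean CPM (not per kb), every called gene and the 8 smallest p-values in the Casp2 contrasts and the interaction, and fixed ligand and receptor pairs. Ccr1, Ccl7, Ccl8, Cxcl1, Cxcl14 and most untested genes fall outside this rule and were named after their values were seen. The values of 1 tested gene are not reported here. Gene coordinates and exon lengths came from GENCODE (GRCm38) and promoters from RefSeq (GRCm38.p6), by symbol. Of the 61 genes, 59 had a length.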

Additional observations from a re-analysis of the deposited data

Results flagged for a closer look

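In 102 gene and group combinations with 4 tumors, 13 had a single tumor far from the other 3 by Dixon's criterion. Chance gives this in about 1 of 20 where values are normally distributed, which was not checked for these CPM. In all 13 the single tumor was the highest, so the rate cannot show an excess here. For Ccr9, Ccl22 and Cxcr2 below, the other 3 tumors were at 0, where any read meets the criterion, so that rate does not apply to them. In the EμMyc tumors, Ccl19 (12.8 CPM against 1.34 to 2.65), Ccl28 (3.61 against 0.513 to 0.709) and Xcr1 (1.91 against 0.875 to 1.02) were high in tumor 835, and Ccr3 (21.3 against 0.212 to 1.84) in tumor 743b.

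In the Th-MYCN tumors, Cxcl13 (23.3 CPM against 0.122 to 1.24), Ccl9 (3.89 against 0.799 to 1.1) and Ccl11 (3.03 against 0.581 to 0.977) were high in tumor 391. Ccr9 was at 0.0577 CPM in tumor 332, which was 1 read, and at 0 in the others.

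In the Th-MYCN/Casp2-/- tumors, Cx3cl1 (7.97 CPM against 3.38 to 4.06), Ccl22 (0.257 against 0) and Cxcr2 (0.129 against 0) were high in tumor 144, Ccr3 (0.193 against 0.0642 to 0.0812) in tumor 176 and Cxcl9 (1.62 against 0.193 to 0.216) in tumor 180. The levels of Ccl22, Cxcr2 and Ccr3 rest on a few reads each. The criterion was not run on the group of 3 EμMyc/Casp2-/- tumors, so Ccl25 and Ccr9 in lymphoma 215 were not examined by it.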

How the results depend on the processing

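Between tumor types, the counts of called genes stayed within 1.5 times of 22, 4 and 26 under each alternative run; the 4 genes lower in EμMyc/Casp2-/- became 2 with sex as a covariate and 2 to 4 with tumors left out. In the Casp2 comparison of lymphomas the count of 0 higher genes became 1 with the likelihood ratio test, 1 with DESeq2 and 0 to 2 with tumors left out, and in the interaction 1 with the likelihood ratio test and 1 with DESeq2. Casp2 itself in the lymphomas passed the threshold with the likelihood ratio test (-1.35), DESeq2 (-1.32) and no filter (-1.36), and ranged from -1.54 to -1.22 with tumors left out. Over all genes, the quasi-likelihood test called 14 higher and 7 lower in the lymphomas, the likelihood ratio test 170 and 45, and DESeq2 161 and 42; with only the groups compared it called 0 and 1. In the neuroblastomas these were 1 and 4, 28 and 93, and 33 and 83.

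Differences near 0 changed sign. In EμMyc against Th-MYCN, Cxcl16 was 0.17 with sex as a covariate and -0.23 to 0.14 with tumors left out, Cx3cl1 was -0.03 with DESeq2, RLE size factors or both strands and ranged from -0.37 to 0.6 with tumors left out (-0.37, -0.08, -0.08 and -0.20 were negative), and Cxcl10 ranged from -0.11 (without EμMyc 829) to 0.91. After Casp2 loss in the neuroblastomas Cxcl13 ranged from -3.55 to 0.35, the latter without Th-MYCN 391. The causes were not tested.

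No paired analysis was possible because the labels name each mouse and give the groups no shared replicate numbers. With 3 or 4 tumors a group, a miss of the threshold does not show that levels were equal, and levels under 3 reads were not detectable at this depth. P-values measure the spread between mice. Tumor type, tissue and strain cannot be told apart, and lymphoma 215 was both the shallowest library and the only female lymphoma. Only the neuroblastomas were picked for absent or reduced vascularization, which cannot be told apart from tumor type either. Age at onset did not overlap between the lymphoma genotypes, so it cannot be told apart from Casp2 loss there.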

Other observations

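Of 5 enzyme genes that trim or release chemokines, 4 were called higher and 1 lower in EμMyc than in Th-MYCN tumors. Between the Casp2-/- tumors 4 were called higher and 0 lower. Of all genes 18.3% and 27.8% were called higher and lower in the first comparison, and 19.7% and 26.6% in the second. Dpp4 and Mmp9 exceeded the minimum of the filter through lymphomas alone, and of all genes that did so 71.5% and 76.7% were called higher. Dpp4, which clips Cxcl12 and other chemokines, was higher in lymphoma by log2 fold changes of 7.49 (EμMyc against Th-MYCN) and 8.49 (Casp2-/- tumors), Mmp9 by 4.68 and 5.33, and Adam17 by 1.24 and 1.18. Adam10, which sheds Cxcl16 and Cx3cl1, was called in the first comparison (1.48) and differed by 0.86 in the second. Mmp12, a macrophage elastase, was lower in EμMyc than in Th-MYCN tumors (-1.52) and higher between the Casp2-/- tumors (1.78), an interaction of 3.29 with an FDR of 0.319 by the quasi-likelihood test and 0.0421 by the likelihood ratio test. After Casp2 loss in the neuroblastomas Mmp12 differed by -2.38, with an FDR of 0.256 by the quasi-likelihood test and 0.0332 by the likelihood ratio test.

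Of 6 family genes outside the naming rule, 3 were called higher in EμMyc than in Th-MYCN tumors and 5 between the Casp2-/- tumors, and none lower, where 18.3% and 19.7% of all tested genes were called higher. Ppbp, Ccbp2 and Ccrl1 exceeded the minimum of the filter through lymphomas alone, as did genes of which 71.5% and 76.7% were called higher. The platelet chemokine genes Ppbp and Pf4 and the chemokine-like gene Cklf were called in both. Ppbp had 31, 11, 1 and 0 reads in EμMyc, 0, 20 and 10 in EμMyc/Casp2-/- and at most 1 in any neuroblastoma, so its calls rest on few reads. Pf4 differed by 1.76 and 1.64 and Cklf by 1.32 and 1.26. The atypical receptor genes Ccbp2 (Ackr2) and Ccrl1 (Ackr4) were called between the Casp2-/- tumors, at 3.24 and 2.20, and missed the threshold between the Casp2 intact tumors, at 1.66 and 1.08. The difference between the comparisons, tested as an interaction, was 1.58 for Ccbp2 (FDR 0.835) and 1.13 for Ccrl1 (FDR 0.806). Cmklr1, the chemerin receptor, was not called (0.67 and 0.67).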
